A study of Mus musculus with 4 samples.

Results

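The genes described here are 9 genes of the osteoclast and of the RANK signal that makes it: Ctsk, Acp5, Calcr, Oscar and Atp6v0d2, which mark or serve the bone-resorbing cell, Tnfrsf11a (RANK), its ligand Tnfsf11 (RANKL), the decoy receptor Tnfrsf11b (osteoprotegerin), and the growth factor gene Csf1. They were taken by gene name, current or older, from the array, which gave 12 probes for the 9 genes out of 41174 probes for 27670 genes. Whole molar germs were dissected from C57BL/6 embryos and pooled by age; RNA of embryonic day (E) 11, 12, 16 or 18 was labelled with Cy5 and hybridised against pooled E14 germs labelled with Cy3, on 1 array per stage. The germs came from the first molar of the lower jaw, all stages are of the same strain, and no group carried a mutation or treatment per the labels. E14 was thus measured 4 times, each other stage once, and the dyes were not swapped. The labels do not say how many germs were pooled or whether the 4 E14 labelings came from separate pools, so their spread may be technical, and no stage has a replicate of its own.

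Osteoclasts are large cells of the monocyte lineage that dissolve bone and cut its matrix. The survival factor CSF1 keeps their precursors alive, RANKL on neighbouring cells then engages RANK on the precursor and drives its fusion and maturation, and osteoprotegerin binds RANKL and keeps it from RANK. A growing molar germ sits in a bony crypt that osteoclasts must enlarge and later open for eruption, and RANK, RANKL and osteoprotegerin are also known to be made in the tooth germ itself. In whole germs, fewer cells of a type and less RNA per cell cannot be told apart.

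The promoters of Ctsk and Acp5 are shown because both genes, above background at every stage, lay below E14 at E11 and E12 and above it at E16 and E18. RefSeq (build GRCm38.p6) gave promoters for 7 of the 9 genes, and of the 3 start sites listed for Acp5 the one with a MITF match was chosen for display. Both are the 250 bases before the start of transcription, 5′ to 3′ on the gene's strand, and capitals mark matches on either strand to TCANNTGA (MITF and TFE factors), GAGGAA (PU.1), GGAAA (NFAT) or TGANTCA (AP-1), none of which overlap here.
Ctsk, chr3:95498960-95499209, plus strand: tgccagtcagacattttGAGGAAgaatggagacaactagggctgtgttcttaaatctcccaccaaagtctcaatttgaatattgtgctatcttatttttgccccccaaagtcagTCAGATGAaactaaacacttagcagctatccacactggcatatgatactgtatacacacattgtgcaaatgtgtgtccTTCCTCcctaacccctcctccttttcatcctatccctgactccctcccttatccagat
Acp5, chr9:22130599-22130848, minus strand: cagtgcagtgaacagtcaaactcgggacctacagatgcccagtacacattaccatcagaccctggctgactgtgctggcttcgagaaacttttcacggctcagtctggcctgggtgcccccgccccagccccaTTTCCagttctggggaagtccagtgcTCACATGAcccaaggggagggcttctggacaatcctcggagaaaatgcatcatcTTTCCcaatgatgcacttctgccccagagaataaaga
TCANNTGA occurs 136 bases before the start of Ctsk, and stood in 7.09% of all 32851 mouse promoters of the same length. In the Acp5 stretch it lies 91 bases before the start, but that start was picked for it and the other two have none, so the share is no comparison there. GAGGAA was found 2 times in the Ctsk stretch (23.3% of promoters hold it), and GGAAA was found 2 times in the Acp5 stretch (55.6% hold it). TGANTCA was in neither (6.75% of promoters hold it). These matches describe letters only, not binding.

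Both resorption enzymes measured here were low at E11 and E12 and above E14 at E16 and E18. Ctsk encodes cathepsin K, the protease that cuts bone collagen, a gene also active in some mesenchymal cells. Its signal, processed by the scanner software in arbitrary units, was 381 at E11 and 285 at E12, then 1703 at E16 and 2998 at E18, against 1190, 1127, 1168 and 1173 for E14 on the same 4 arrays. Every stage lay outside the E14 values, and E18 was the highest. On the log2 scale, computed from the raw intensities with an offset of 50, Ctsk differed from E14 by -1.24 at E11 and -1.49 at E12, but by 0.53 at E16 and 1.23 at E18 (SD of E14 0.04, n = 4), so it was 2.35-fold higher at E18 than at E14. Ctsk at E12 was 0.846 times its level at E11, the step from E12 to E16 was 4.06-fold, and that from E16 to E18 was 1.62-fold. All of these differences exceed the E14 SD, which measures repeat hybridisations of E14 and not the error of a stage measured on 1 array. Ratios from the scanner software, without the offset, put the steps from E12 to E16 and from E16 to E18 at 5.77-fold and 1.75-fold.

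Acp5 encodes tartrate-resistant acid phosphatase, the classical osteoclast stain, which macrophages also make. Processed signal was 626 at E11 and 243 at E12, then 1484 at E16 and 2210 at E18, against 1154, 1013, 1058 and 1161 for E14. As for Ctsk, E12 was the lowest stage and E18 the highest, but Acp5 at E11 was less far below E14. Log2 ratios were -0.73, -1.56, 0.47 and 0.83 in the order of the stages (SD of E14 0.07, n = 4), and Acp5 at E12 was 0.561 times its level at E11. From E12 to E16 it was 4.10-fold higher, and from E16 to E18 1.28-fold. The scanner software's ratios, without the offset, gave 5.85-fold and 1.36-fold for these steps.

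A steady course over development was tested by regressing the 4 log2 ratios on embryonic day, with limma over 17394 of the 17401 measured genes (those with a value on every array) and Benjamini-Hochberg adjustment. The p-values measure the scatter of single arrays about the line, not that between litters. Ctsk rose by 0.39 ± 0.04 log2 units per day (SE, adjusted p = 0.00824) and Acp5 by 0.30 ± 0.07 (adjusted p = 0.0426). The Acp5 call is the less firm: its adjusted p was 0.0522 with the scanner software's log ratios, 0.0618 with median centring, 0.0586 with the mean over probes, 0.0678 with no intensity trend, 0.0542 without E11 and 0.0517 without E12. The E11 and E12 arrays shared a slide, and those of E16 and E18 shared another, so slide and the contrast of early with late stages cannot be told apart. Blocking on slide leaves a single degree of freedom; the slope of Ctsk was 0.23 ± 0.18 and that of Acp5 -0.023 ± 0.20, and 0 of all measured genes passed by limma (577, or 3.32%, had an unadjusted p under 0.05, of the 9 genes only Tnfrsf11b).

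**Figure D1:**
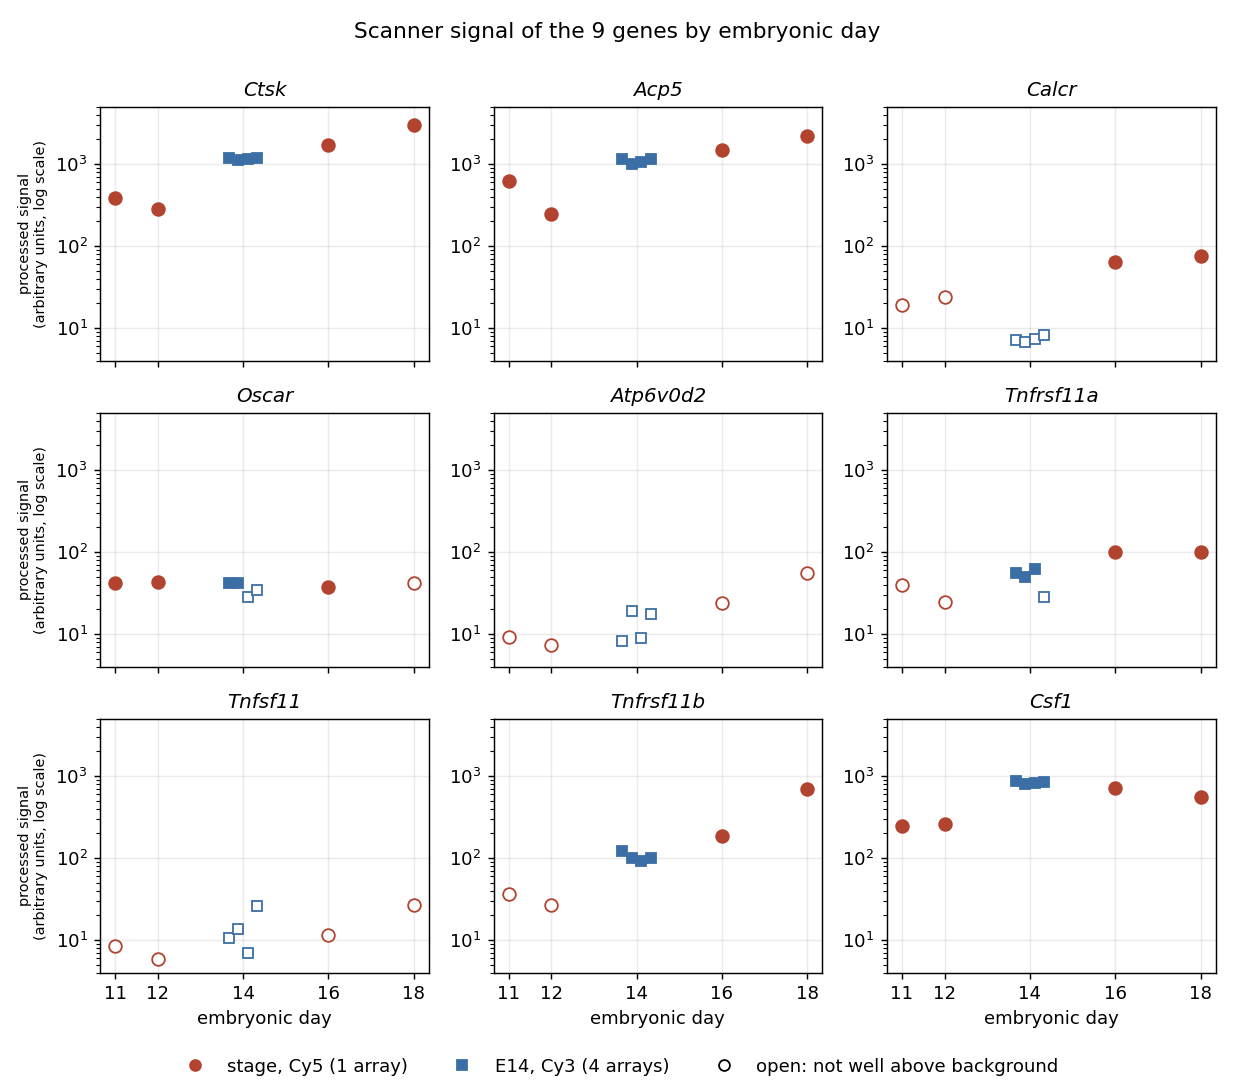
Processed scanner signal (arbitrary units, log scale) of the 9 genes against embryonic day, with 1 Cy5 value per stage (circles) and the 4 Cy3 values of E14 (squares, spread sideways for legibility); open symbols are not well above background. Ctsk, Acp5, Tnfrsf11b and, on dim signals, Calcr and Tnfrsf11a end above E14 at E18 with filled symbols. Csf1 is highest at E14, and Tnfsf11 and Atp6v0d2 have open symbols throughout.

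The other osteoclast genes were dim. Calcr, the calcitonin receptor through which calcitonin restrains osteoclasts, had a processed signal of 19.1, 24.0, 63.9 and 75.4 at E11, E12, E16 and E18 on its brighter probe, against 7.21, 6.69, 7.38 and 8.21 for E14. The scanner's flag for a signal well above background was set at E16 and E18 only, and on no E14 array, so a fold is given as a bound: the Cy5 level against the mean, over the 4 E14 arrays, of the higher of the dimmest Cy3 level called above background and the probe's own. Against that level, Calcr was 1.18-fold higher at E16 and 1.19-fold higher at E18. These bounds are approximate, because a probe without the flag can read above the dimmest level called above background. The slope of Calcr was 0.03 ± 0.01 (adjusted p = 0.211). The other Calcr probe was not well above background on any array in either channel.

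Oscar encodes an immune-type receptor that co-stimulates osteoclast formation. Its signal was 42.4, 42.7, 37.2 and 41.5 at E11, E12, E16 and E18, against 41.9, 41.6, 28.4 and 33.9 for E14, and it was flagged above background at E11, E12 and E16 and on 2 of 4 E14 arrays. The log2 ratios lay between -0.02 and 0.05, within the E14 SD of 0.06 (n = 4), and the slope was -0.0016 ± 0.01 (adjusted p = 0.954). Atp6v0d2, a proton pump subunit needed for osteoclast fusion, was not well above background at any stage, with signals of 9.24, 7.24, 24.1 and 55.1 at the 4 stages, against 8.27, 18.9, 8.81 and 17.6 for E14. No change of Oscar or Atp6v0d2 was detectable at this signal.

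Of the RANK signal's 3 genes, the decoy receptor gene passed the slope test, the receptor gene did not, and the ligand gene was not measured. Tnfrsf11b had a processed signal of 35.9 at E11 and 26.8 at E12, then 187 at E16 and 701 at E18, against 121, 101, 92.0 and 100 for E14. E11 and E12 were not well above background, and E16 and E18 lay above every E14 value. Log2 ratios with the offset were 0.36 at E16 and 1.31 at E18 (SD of E14 0.08, n = 4), 2.48-fold higher at E18. At E11 and E12 they were -0.40 and -0.48, with the stage at background. Because the offset compresses dim signals, the scanner's own ratios are larger, 2.03-fold at E16 and 6.98-fold at E18.

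The slope of Tnfrsf11b was 0.24 ± 0.03 per day (adjusted p = 0.0134). It rests in part on the floor values at E11 and E12, and adjusted p was 0.0614 without E11 and 0.0572 without E12. With slide as a block it was 0.36 ± 0.11, with an unadjusted p of 0.00541 and an adjusted p of 0.564. Within the slide of E16 and E18, Tnfrsf11b was 1.93-fold higher at E18, and on that of E11 and E12 both stages were at background.

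Tnfsf11, the ligand, was not well above background on any array with either of its 2 probes. The brighter probe read 8.35, 5.93, 11.6 and 26.9 at E11, E12, E16 and E18, against 10.6, 13.5, 6.89 and 26.1 for E14. Its other probe read 8.12, 6.16, 20.1 and 12.7, against 22.8, 6.27, 21.4 and 8.23 for E14. Stages and E14 overlap on both, and a change of the ligand was not detectable. Taken as they stand, the log2 ratio of Tnfsf11 minus that of Tnfrsf11b was 0.34, 0.35, -0.41 and -1.24 at the 4 stages. On this scale Tnfsf11 itself ran between -0.13 and 0.07, but between -1.19 and 0.75 in the scanner's log ratios, both at background, so the difference gives no ratio of ligand to decoy.

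Tnfrsf11a, the receptor RANK on osteoclast precursors, was faint. On its brighter probe it had a signal of 39.1, 24.3, 100 and 101 at E11, E12, E16 and E18, against 55.0, 50.1, 61.5 and 28.0 for E14, and was above background at E16, at E18 and on 3 of 4 E14 arrays. E16 and E18 lay above all 4 E14 values. The log2 ratios were 0.20 at E16 and 0.30 at E18 (SD of E14 0.08, n = 4), and the slope of 0.06 ± 0.01 did not pass (adjusted p = 0.0702, but 0.0484 without background correction and 0.0389 without E16). The scanner's own ratios, without the offset, were larger, 1.6-fold at E16 and 3.6-fold at E18. On the E18 array E14 was not well above background. The second Tnfrsf11a probe was below that flag throughout and read 22.5 at E16 and 26.5 at E18, against 27.6 and 40.4 for E14 on those arrays, so the probes differ at the late stages.

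Csf1, the growth factor of the monocyte and osteoclast lineage, had a different course: low at E11 and E12, highest at E14, and slightly below it after. Processed signal was 247, 261, 722 and 553 at E11, E12, E16 and E18, against 877, 793, 821 and 838 for E14, and all 4 stages lay below every E14 value. The log2 ratios were -1.27, -1.18, -0.11 and -0.42 (SD of E14 0.01, n = 4), which makes Csf1 2.41-fold lower at E11 and 2.27-fold lower at E12 than at E14. The scanner's own ratios, without the offset, put these at 3.55-fold and 3.04-fold. Csf1 was 2.10-fold higher at E16 than at E12 (2.67-fold by the scanner's ratios). Its slope of 0.15 ± 0.04 did not pass (adjusted p = 0.0778), but did without E18 (0.24 ± 0.06, adjusted p = 0.0112). At E16 the direction depends on the scaling: median centring put Csf1 at 0.61 where the median of all genes was 0.57, or 0.03 above that median.

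The Csf1 probe was spotted 10 times per array, the other probes once. Over the spots the log2 ratio ran between -1.37 and -1.13 at E11 (9 spots, 1 left out as an outlier), between -1.34 and -1.05 at E12, between -0.21 and -0.05 at E16, and between -0.49 and -0.32 at E18. The spots of E11 and E12 overlap, those of E16 and E18 do not, and the early stages are clear of the late ones. Spots of an array share 1 pool, so this is measurement error only.

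**Figure D2:**
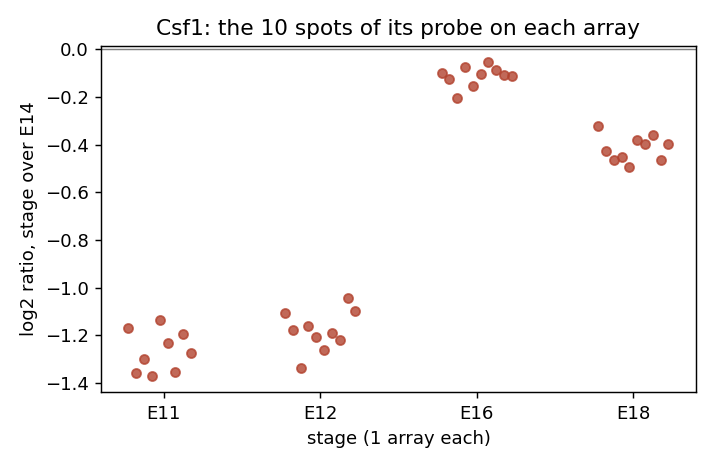
Log2 ratio over E14 of each spot of the Csf1 probe (points, up to 10 per array) at E11, E12, E16 and E18. The spots lie between -1.37 and -1.05 at E11 and E12 and between -0.49 and -0.05 at E16 and E18.

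Counted at 2-fold from E14, 2 of the 7 measured genes were lower at E11 (Ctsk and Csf1, with 4.87% of all measured genes lower), 3 were lower at E12 (Ctsk, Acp5 and Csf1; 2.63% of all), 0 were past 2-fold at E16 (2.01% of all higher and 1.7% lower), and 2 were higher at E18 (Ctsk and Tnfrsf11b; 3.81% of all). In the opposite directions the counts were 0 higher at E11 (1.6% of all), 0 higher at E12 (0.316%) and 0 lower at E18 (3.86%). A gene counts as measured if its probe was flagged on 1 or more arrays for Cy5, or on 2 or more for Cy3. Calcr passed that filter through E16 and E18 alone, and Tnfsf11 and Atp6v0d2 did not pass it. At 2-fold between stages, 3 were higher at E16 than at E12 (Ctsk, Acp5 and Csf1; 4.79% of all) and 3 higher at E18 than at E11 (Ctsk, Acp5 and Tnfrsf11b; 5.93% of all), with 0 lower in either pair (1.48% and 2.53% of all). Between E12 and E11 the 7 genes gave 0 in either direction (0.672% of all higher, 0.305% lower), as did E18 and E16 (0.489% higher, 0.879% lower). By slope 3 of 7 rose and 0 fell, against 6.26% of all genes rising and 2.64% falling. At an unadjusted p under 0.05 the count was 5 of 7, against 27.7% of all genes. The median slope of the 7 was 0.15, against -0.0021 over all genes.

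The scanner software's own log ratios carry no offset, so more genes pass 2-fold on that scale, in the whole table as well. At E11 they put 1 of the 7 higher than E14 (8.83% of all) and 3 lower (13.3%), and at E12 1 higher (4.9%) and 5 lower (8.02%). At E16 they put 2 higher (8.44%) and 0 lower (8.1%), and at E18 4 higher (11.9%) and 0 lower (14% of all). The gene higher at E11 and E12 is Calcr, which was not well above background there.

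**Figure D3:**
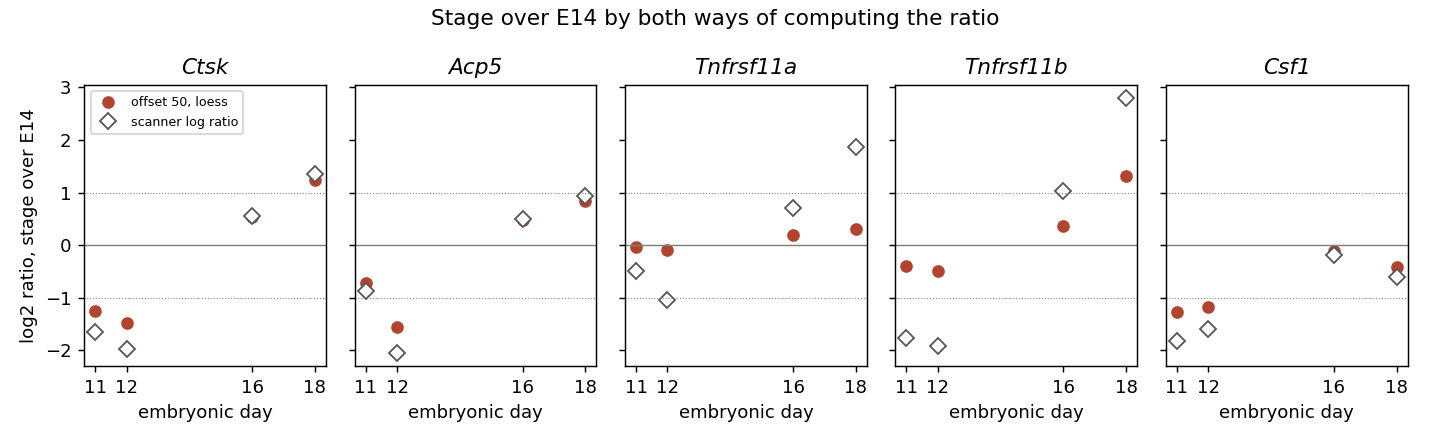
Log2 ratio of each stage over E14 for 5 of the genes by embryonic day, computed with the offset of 50 and loess (filled circles) and as the scanner software gave it (open diamonds); dotted lines mark 2-fold. Both agree closely for the bright Ctsk and Acp5 at E16 and E18, while for the dim Tnfrsf11b at E18 they read 1.31 and 2.80.

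**Figure D4:**
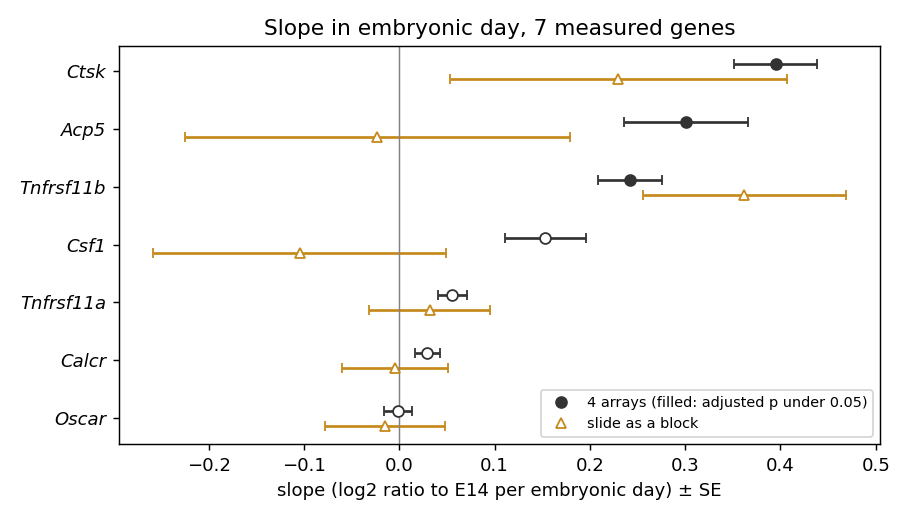
Slope of the log2 ratio per embryonic day with its SE for the 7 measured genes, from all 4 arrays (circles, filled where adjusted p was under 0.05) and with slide as a block (triangles). Ctsk, Acp5 and Tnfrsf11b passed without the block, and with it the slope of Acp5 is -0.023.

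Other osteoclast genes moved in part. Of 23 listed, 22 were measured, 6 rose, 1 fell and 15 did not pass, against 6.26% of all genes rising and 2.64% falling, with a median slope of 0.08, against -0.0021 over all genes. The gelatinase gene Mmp9 rose by 0.37 ± 0.05 per day (adjusted p = 0.0115), with log2 ratios of -3.19 at E11 and -3.11 at E12, but -0.98 at E16 and -0.92 at E18, so E14 was its highest stage. The adaptor gene Tyrobp (DAP12), which pairs with the receptor TREM2 in myeloid cells, rose by 0.31 ± 0.05 (adjusted p = 0.0162), and its log2 ratio was lowest at E12 (-1.03) and highest at E18 (1.34). Trem2 itself did not pass (0.079 ± 0.045, adjusted p = 0.310). Ctsb, also listed, rose by 0.18 ± 0.03 (adjusted p = 0.0222). Among the genes of cell fusion, Ocstamp rose by 0.17 ± 0.03 (adjusted p = 0.0185) and Dcstamp by 0.09 ± 0.02 (adjusted p = 0.0267). Ocstamp at E12, and Dcstamp at E11 and E12, were not well above background, so both slopes rest in part on floor values. Mitf, a transcription factor of osteoclasts and pigment cells, rose by 0.25 ± 0.05 (adjusted p = 0.0319) and stood at 1.66 at E18. At E11 and E12 Mitf was not well above background. Itgb3, the integrin chain by which osteoclasts hold to bone, fell by 0.17 ± 0.03 per day (adjusted p = 0.0279). Nfatc1, the master factor below RANK, was at -0.10 ± 0.03 (adjusted p = 0.105), and Car2, the carbonic anhydrase that supplies acid, at 0.29 ± 0.10 (adjusted p = 0.128) with a log2 ratio of 2.80 at E18.

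Below the receptor, 1 of 20 measured genes rose and 0 fell, a share near that of all genes (6.26% rising, 2.64% falling). It was Junb, an AP-1 subunit (0.36 ± 0.05, adjusted p = 0.0126). Bcl6, a transcription factor that bears on osteoclast formation, was at 0.34 ± 0.08 (adjusted p = 0.0560), with its highest log2 ratio at E16 (0.71). Of 6 genes of the CSF1 axis 3 were measured and none passed, with the receptor gene Csf1r at 0.07 ± 0.04 (adjusted p = 0.284) and the alternative ligand gene Il34 at 0.06 ± 0.03 (adjusted p = 0.323). None of 8 calcitonin family genes passed either. Calca, the calcitonin and CGRP gene, had log2 ratios of -2.79, -2.52, 0.98 and -0.43 in the order of the stages (slope 0.45 ± 0.12, adjusted p = 0.0743). At E11 Calca was not well above background, so that ratio is a floor value.

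Genes of bone-forming cells and of RANKL control moved over the same stages. Of 12 measured, 6 rose, 1 fell and 5 did not pass (6.26% of all genes rose and 2.64% fell), with a median slope of 0.26. Alpl, the alkaline phosphatase of mineralization (0.64 ± 0.06, adjusted p = 0.00589), Spp1, osteopontin, which osteoclasts and bone-forming cells both make (0.61 ± 0.09, adjusted p = 0.0160), and Ibsp, bone sialoprotein (0.43 ± 0.09, adjusted p = 0.0378), had the largest slopes. Ibsp was not well above background at E11 and E12. Pthlh, the hormone-like signal that acts on bone cells to raise RANKL, rose by 0.36 ± 0.08 (adjusted p = 0.0498, close to the threshold). The log2 ratios of Pthlh were -1.70, -0.74, 1.35 and 0.63 in the order of the stages, highest at E16. Its receptor gene Pth1r fell by 0.25 ± 0.04 per day (adjusted p = 0.0136).

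**Figure D5:**
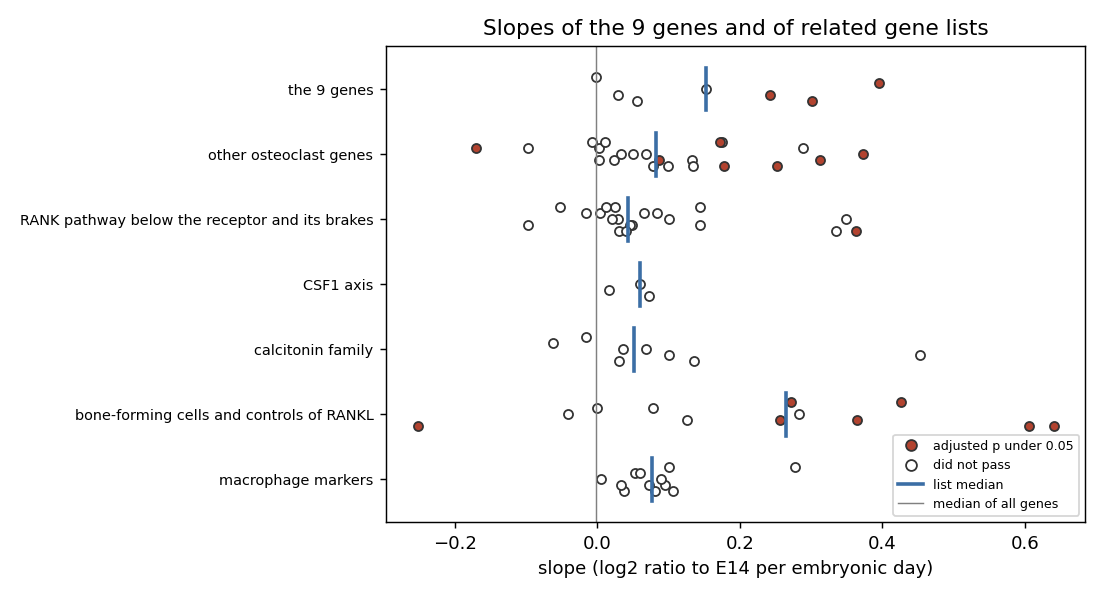
Slope of the log2 ratio per embryonic day (x axis) for each measured gene of the 9 and of 6 related lists (points, filled where adjusted p was under 0.05), with each list's median (blue bar) and the median of all genes (grey line). The bone-forming list has a median of 0.26, and none of the macrophage markers is filled (6.26% of all genes rose and 2.64% fell).

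Markers of other cell types shifted over the same stages, and their part in the results was not tested. Over all genes 6.26% rose and 2.64% fell, so a count of 0 in these short lists lies near that share. Of macrophage markers, which number 14, 12 were measured and 0 passed the slope test, with a median slope of 0.08, and Itgam and Cd163 were not well above background at any stage. All 12 were above background at every stage. Their summed processed signal was 5020 at E11 and 2766 at E12, then 11910 at E16 and 8503 at E18, against 7400 to 8299 for E14, lowest at E12 as for Ctsk and Acp5 but highest at E16. Lyz2 was the largest part of these sums, with 2583, 1065, 7703 and 5151 in the order of the stages. The 10 osteoclast markers, which include 6 of the 9 genes, summed to 2819, 1900, 5309 and 7461, against 5745 to 6493 for E14. The 4 that are not among the 9 (Mmp9, Dcstamp, Ocstamp and Itgb3) summed to 1702, 1275, 1897 and 1979, against 3488 to 4036 for E14. Their sum was thus below E14 at every stage, late stages included, but Mmp9 and Itgb3 gave most of it. At E18 Mmp9 and Itgb3 read 1002 and 456, against E14 medians of 2419 and 932. Ocstamp and Dcstamp read 429 and 92.1 at E18, against E14 medians of 316 and 84.5. Bone-forming markers, of which 4 of 6 rose, summed to 2386, 3660, 17150 and 22590, against 11120 to 12310 for E14. Markers of the germ's own tissues differed too: 5 of 6 dental epithelium markers rose, with sums of 37000, 73000, 366800 and 386100, against 201100 to 285200 for E14. Krt5 and Krt14 gave most of these sums, with 214000 and 105400 at E16. Of dental mesenchyme markers 5 of 6 fell, with sums of 92740, 83110, 44490 and 29170, against 81530 to 110800 for E14, and all 6 were above background at every stage. Of red cell markers 3 of 6 fell and of cartilage markers 1 of 4 fell, while 0 of 4 muscle and 0 of 6 endothelium markers passed.

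The genes whose ratios lay nearest to those of each member were found by Euclidean distance over the 4 log2 ratios among all measured genes, for the 4 members whose ratios span at least 1. For Acp5 they were Clec4a2, a lectin gene of myeloid cells (distance 0.39), Crip1 (0.43) and Grik4 (0.46). Ctsk had Grik4 (0.56), Ly6g6e (0.57) and the Wnt inhibitor gene Dkk1 (0.58), with no gene within 0.5. Tnfrsf11b was close to Kcnk1 (0.15), Ggt1 (0.17) and Cxadr (0.24), among 47 genes within 0.5, and Csf1 to Mical2 (0.09), Sdc2 (0.19) and Dipk2a (0.23), among 66.

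The chosen probes lie, on the mouse build mm7 named in the file headers, at chr3:95380674-95380918 for Ctsk, chr9:22009367-22009426 for Acp5, chr6:3638463-3638522 for Calcr, chr7:3233492-3233551 for Oscar, chr4:19804305-19804364 for Atp6v0d2, chr1:105746736-105746795 for Tnfrsf11a, chr14:72958725-72958784 for Tnfsf11, chr15:54311325-54311384 for Tnfrsf11b and chr3:107559703-107559762 for Csf1. The Ctsk probe covers 245 bases of genome, the others 60 each. The promoters above are on a later build, and the exons or UTRs that the probes match were not analysed here.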

How the data were processed

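The deposited files, made with Agilent Feature Extraction 10.5.1.1 per the file headers, hold spot intensity (mean signal, background, processed signal) with flags. The deposited log ratio is log10, red (Cy5) over green (Cy3), per the file headers; the deposited series table matched it within 0.6% for 100% of values, so it was not run as a separate alternative.

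The deposited intensity was then turned into log2 values using limma 3.58.1 (R 4.3.3): normexp background correction (offset 50), within-array loess with controls at weight 0, outlier spots left out (92 to 126 per array), spots averaged, and the brightest probe per gene. The SD of E14 and the bounds used levels after a further between-array quantile step on average intensity (Aquantile), which was not applied to the ratios. The slope in embryonic day used lmFit and eBayes with an intensity trend (2 residual degrees of freedom), checked on simulated data. Probes were named through RefSeq (GRCm38.p6). Precision is limited by the number of arrays. Genes were named as the 9 genes, of each list at most 3 at either end by slope plus genes past adjusted p 0.05 up to 6, and the 3 nearest genes. Ctsb, Trem2 and the markers that weighed most on a sum were named beside these. The genes, lists and named-gene rule were chosen with earlier results of these data known.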

Additional observations from a re-analysis of the deposited data

How the results depend on the processing

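No paired analysis was possible because each stage is 1 array and the labels give no replicate numbers. Median centring put the all-gene median at 0.40, 0.64, 0.57 and 0.17 (E11, E12, E16, E18). Relative to those medians Ctsk stood at -1.11, -1.39, 0.78 and 1.47.

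Of the 7 measured genes, the count lower at E11 was 0 with median centring, lower at E12 it was 0 with median centring and 5 with scanner log ratios, and higher at E16 it was 2 with either. The median-centred counts were not taken relative to the all-gene medians above. Relative to those, Ctsk and Csf1 stood at -1.11 and -1.21 at E11. Ctsk, Acp5, Tnfrsf11b and Csf1 stood at -1.39, -1.47, -1.18 and -1.14 at E12. At E16 Ctsk and Acp5, which made up the median-centred count, stood at 0.78 and 0.72. Scanner log ratios also gave 1 higher at E11, 1 higher at E12 and 4 higher at E18 (8.83%, 4.9% and 11.9% of all genes). Between stages they gave 1 lower at E12 than at E11 and 6 higher at E16 than at E12. They also gave 2 higher at E18 than at E16 and 6 higher at E18 than at E11. These ratios carry no offset and include values not above background. Apart from scanner ratios against E14, shares of all genes at 2-fold were not counted under the alternative settings. The other counts are thus no result about the 7 genes. Between E16 and E18, 1 was higher without background correction and 1 with an offset of 16, where the main count was 0. Rising slopes numbered 0 with slide as a block, where Acp5 turned to -0.023, and 1 to 4 when leaving out an array in turn (1, Ctsk, without E11 and without E12). Over all measured genes the rising count moved likewise, from 1089 in the main fit to 0 with the block. It was 141 without E11, 297 without E12, 1672 without E16 and 1556 without E18. Only genes well above background in both channels, eBayes with no trend, no filter on dim probes and the mean over probes left every count of members within 1.5 times.

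The log2 change of Tnfsf11 relative to Tnfrsf11b was 0.62, 0.61, -0.69 and -1.72 with an offset of 16, 0.22, 0.18, -0.79 and -1.46 with median centring, and 1.41, 0.72, -0.28 and -2.76 with scanner log ratios, in the order of the stages. Without background correction it was -0.54 at E16 and -1.75 at E18. The cause of these shifts was not tested, and all rest on Tnfsf11 at background. Dim signals limit Calcr, Oscar, Atp6v0d2, Tnfrsf11a and Tnfsf11.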
